A study of Mus musculus with 9 samples.

Results

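Splicing factors of the SR, hnRNP, SF3, U2AF, Sm and PTB families were followed in mouse macrophages that lacked tristetraprolin (TTP) and re-expressed either TTP or a TTP mutant. The members were taken by gene symbol, and 57 were found among the 13205 genes listed for the comparison of TTP-AA with TTP. They comprised 19 hnRNPs, 10 SR proteins, the 2 Tra2 proteins, 3 PTB family genes, 6 SF3b and 3 SF3a subunits, 3 U2AF genes, 4 proteins of the U1 and U2 particles and 7 proteins of the Sm core. All 57 were also listed in the other comparisons, including the shorter list of 11977 genes for TTP against GFP. Hnrnpd was left out by the rule, and Snrpn and Srsf12 were not among the listed members.

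The cells were bone marrow-derived macrophages from TTP-deficient mice that had been immortalized with the oncogenes hcmyc and hRasG12V and selected for CD11b and F4/80. They carried a doxycycline-inducible vector for GFP alone (GFP group), GFP-TTP (TTP group) or GFP-TTP-AA (TTP-AA group), the last a form that the kinase MK2 cannot phosphorylate. All 3 groups therefore shared the loss of endogenous TTP and both oncogenes, and every culture received doxycycline at 1 µg/ml for 6 h and LPS at 1 µg/ml for 1 h. No untreated cells were among the 9 libraries, 3 in each group. Each group was a transduced cell line, and the labels do not say whether the replicates came from separate transductions or cultures, so p-values measure the spread between these libraries, which may be technical. RNA-seq was made from total RNA depleted of ribosomal RNA.

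TTP binds AU-rich elements in 3′ untranslated regions (3′UTRs) and recruits the deadenylation machinery, and phosphorylation by MK2 lowers this activity. SR proteins bind exonic enhancers through RNA recognition motifs and recruit the spliceosome through their arginine- and serine-rich domains. hnRNPs coat nascent transcripts and often act against SR proteins at nearby sites, whereas SF3a, SF3b and U2AF define the branch point and the 3′ splice site. Many of these factors control their own amount by splicing a poison exon into their mRNA, which sends it to nonsense-mediated decay.

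The sums of the fitted library values ran from 21500000 in TTP replicate 1 to 103000000 in TTP-AA replicate 3. The deposited library table holds fitted means and not measured counts, so the spread of the replicates enters only through the standard errors (SE) of the deposited fold changes. Zfp36, the gene that encodes TTP, had fitted normalised counts of 1739, 1406 and 887 in GFP, 1789, 1447 and 913 in TTP and 2814, 2275 and 1436 in TTP-AA. The change was 0.04 ± 0.17 (log2, SE, n = 3 and 3) for TTP against GFP and 0.69 ± 0.17 for TTP-AA against GFP, so this gene does not set the libraries labelled TTP apart from those labelled GFP. Which part of the gene is missing in the knockout and whether reads of the vector were counted here is not given in the sources used. The 8 macrophage markers found had fitted normalised counts between 16.2 and 663100, and their sum was 666500 in GFP, 555800 in TTP and 762100 in TTP-AA. Emr1, which encodes the F4/80 by which the cells had been selected, stood at 16620, 9890 and 26660 in these groups, and Fcgr1 at 657.7, 285.5 and 502.5. The markers of T cells, B cells, fibroblasts and epithelial cells stayed at or below 5.05. The neutrophil list came to 138, 140 and 234 in GFP, TTP and TTP-AA, nearly all of it S100a8. The part of these differences in the results was not tested.

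Of the members called below, 5 carry the heptamer TATTTAT, a core AU-rich element of the kind TTP binds, in the 3′UTR of the transcript with the longest coding sequence. Their windows are shown because they are the sequence on which TTP could act directly, and were chosen after the values were seen. The heptamer is in capitals with 10 bases on each side, in the sense of the mRNA (GENCODE M21 transcripts, GRCm38).
Hnrnpa1, chr15:103244686-103244712, plus strand: atttggaattTATTTATggttgcttgg
Hnrnpll, chr17:80030043-80030069, minus strand: atataatttgTATTTATtatttaatca
Tra2a, chr6:49244042-49244068, minus strand: ggacaaccttTATTTATtaactagaac
Srsf10 site 1, chr4:135864519-135864545, plus strand: ccatgatgatTATTTATgatgcaatgt
Srsf10 site 2, chr4:135865156-135865182, plus strand: tacccttaaaTATTTATaatttctagt
Ptbp1, chr10:79864165-79864191, plus strand: agagtgtaaaTATTTATgattttatac
The heptamer was searched on the mRNA strand only. It was present in 12 of the 57 members (21.05%) and in 26.97% of the 11622 listed coding genes that had an annotation. The 3′UTRs read had a median length of 702 bases in the members and 931.5 in these coding genes, and the part of length in the shares was not tested. The other members with a match were Hnrnpc, Hnrnpr, Sf3b1, Snrpb2, Snrpd3, Snrpg and Srsf7. The same number of members held it when the transcript with the longest 3′UTR was read instead, against 30.11% of all coding genes. A match is a string of letters and no site of binding was measured in these libraries. The study mapped RNA crosslinks of both TTP forms under the same treatment by crosslinking and immunoprecipitation, and those data were not used here.

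The members were abundant transcripts, with a median mean normalised count of 5105 against 926.2 for all listed genes. Per kilobase of transcript, the fitted normalised count in GFP ran over a 258.8-fold range with a median of 2142. Hnrnpab, an RNA-binding protein of the A/B type, stood highest at 24591 per kb, followed by the SR protein gene Srsf1 at 18710 per kb and the Sm gene Snrpe at 13599 per kb. Hnrnph3 was lowest at 95.02 per kb, with Ptbp2, the neuronal PTB paralogue, at 128 per kb and the SF3a subunit Sf3a2 at 170 per kb. The order of the members changed little with the construct, and the largest shift was 9 places, for Sf3b6, followed by 8 for Ptbp1. In TTP-AA Hnrnpab came to 19936 per kb, from 26273 in TTP.

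**Figure D1:**
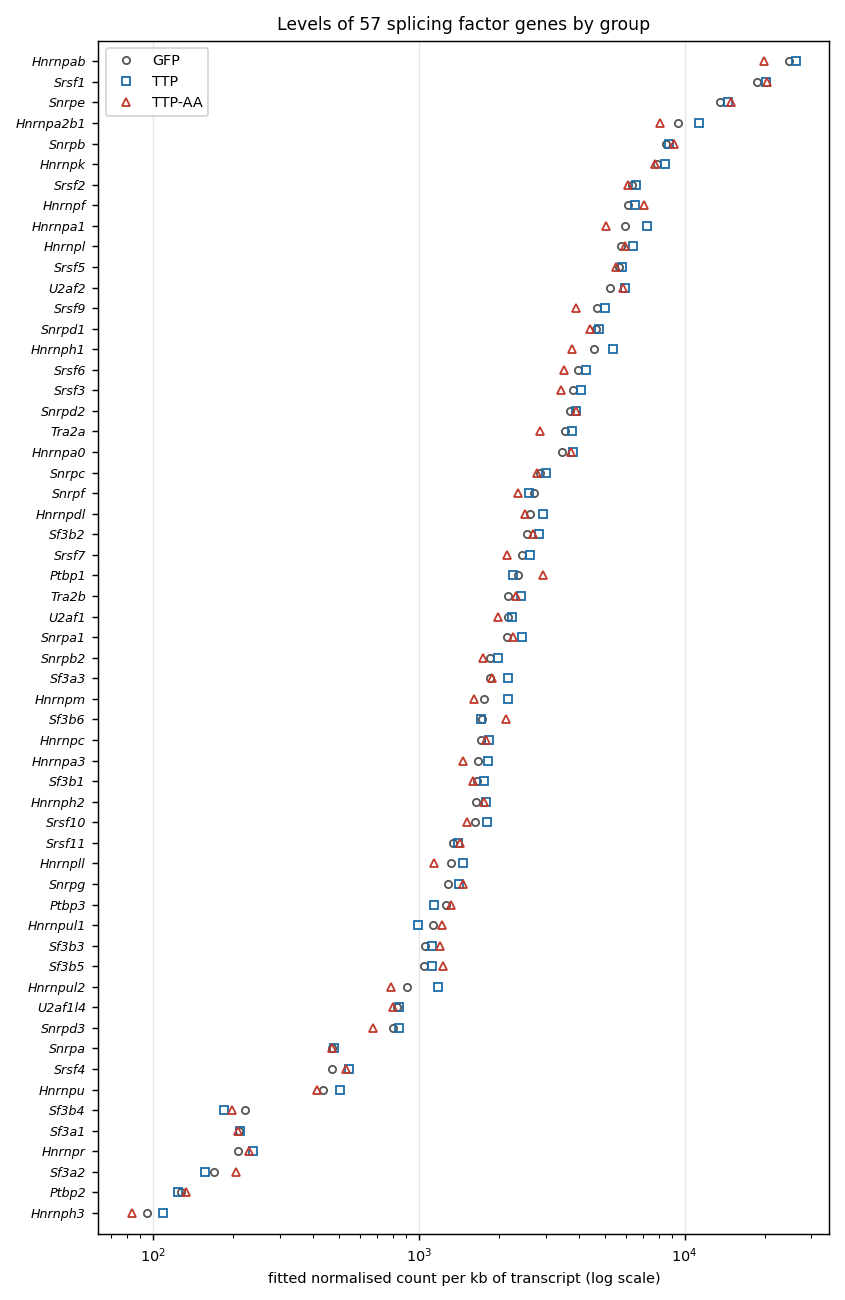
Fitted normalised count per kb of transcript on a log axis for the 57 members in the GFP, TTP and TTP-AA groups, ordered by the GFP level. Each marker is a geometric mean over 3 fitted libraries, and the levels run from 95.02 to 24591 per kb in GFP.

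The values differed more between replicate numbers than between constructs for most members. The term shared by same-numbered libraries spanned a median of 0.30 on the log2 scale over the members and the 3 groups spanned 0.20, and the former was the larger for 43 of 57. Hnrnpa1, a shuttling hnRNP that represses splice sites, had fitted normalised counts of 9925, 8762 and 17219 in GFP, 12052, 10640 and 20909 in TTP and 8414, 7428 and 14597 in TTP-AA, replicates 1 to 3. Replicate 3 was highest in every group, so the groups overlapped although each same-numbered set had the order TTP, GFP, TTP-AA, an order that the fit gives to every set by construction. For Sf3b6, the SF3b subunit at the branch point, the values were 1990, 2150 and 2011 in GFP and 1975, 2134 and 1996 in TTP. In TTP-AA they were 2445, 2641 and 2471, above all others. Overlap or separation of fitted values, here and below, only sets a group change beside the term shared by same-numbered libraries. It does not show how closely replicates matched.

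**Figure D2:**
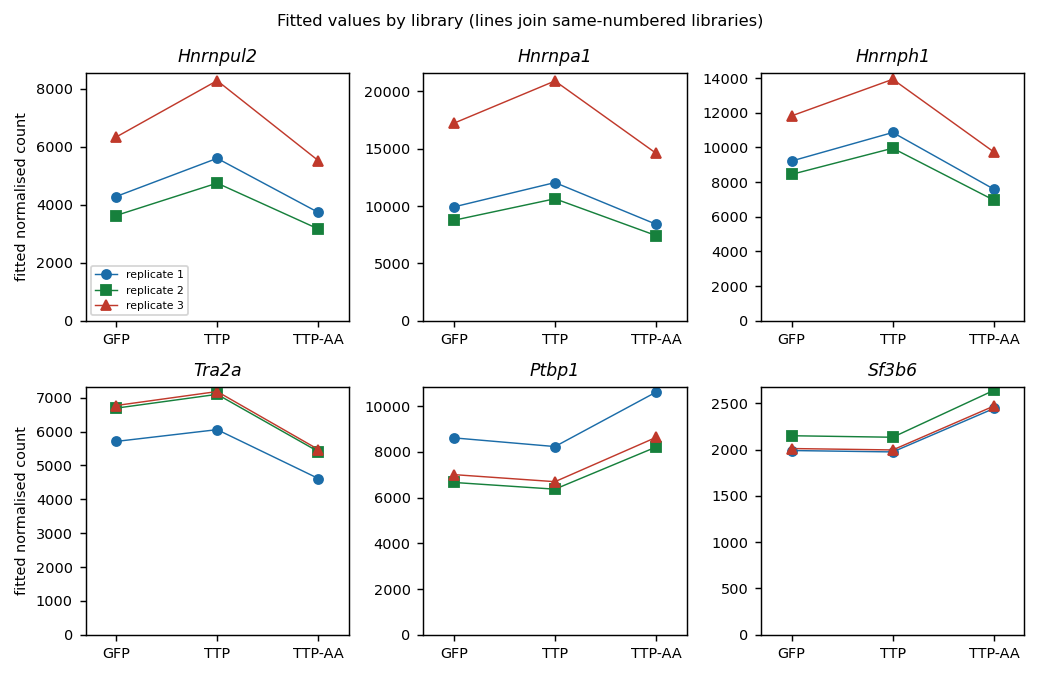
Fitted normalised counts (y axes from 0) of 6 members in the 9 libraries, with lines joining same-numbered libraries of the GFP, TTP and TTP-AA groups (3 libraries each). The lines are parallel on a log scale because the values are fitted; for Hnrnpul2, Hnrnpa1 and Hnrnph1 replicate 3 lies above the others, and for Sf3b6 the TTP-AA values lie above all GFP and TTP values.

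TTP-AA against TTP compares the line with TTP that MK2 cannot phosphorylate with the line holding unmutated TTP. Effects of the construct and differences between the lines cannot be told apart. Of the 57 members, 17 passed an adjusted p of 0.05 (the deposited two-sided Wald test of DESeq2, adjusted over all listed genes, n = 3 and 3 with 3 GFP libraries in the same model), 14 lower and 3 higher in TTP-AA. That is 29.8% of the members, and 28.6% of all listed genes passed, so the share is near the background. The members had smaller errors, with a median SE of 0.096 against 0.126 for all genes, so these shares are set beside each other at unlike precision. The direction was unequal: 24.6% of the members were called lower and 5.26% higher, against 14.6% and 14% of all genes. The median change was -0.09 on the log2 scale for the members and -0.01 for all genes. Below 0 were 42 of the 57 (73.7%), against 51.4% of all genes. With each Wald score scaled down by the central spread of the scores of all genes (2.17), 0 of the 17 members passed, and 2.01% of all genes did. Fewer cells of a kind and less RNA per cell cannot be told apart in these bulk libraries.

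**Figure D3:**
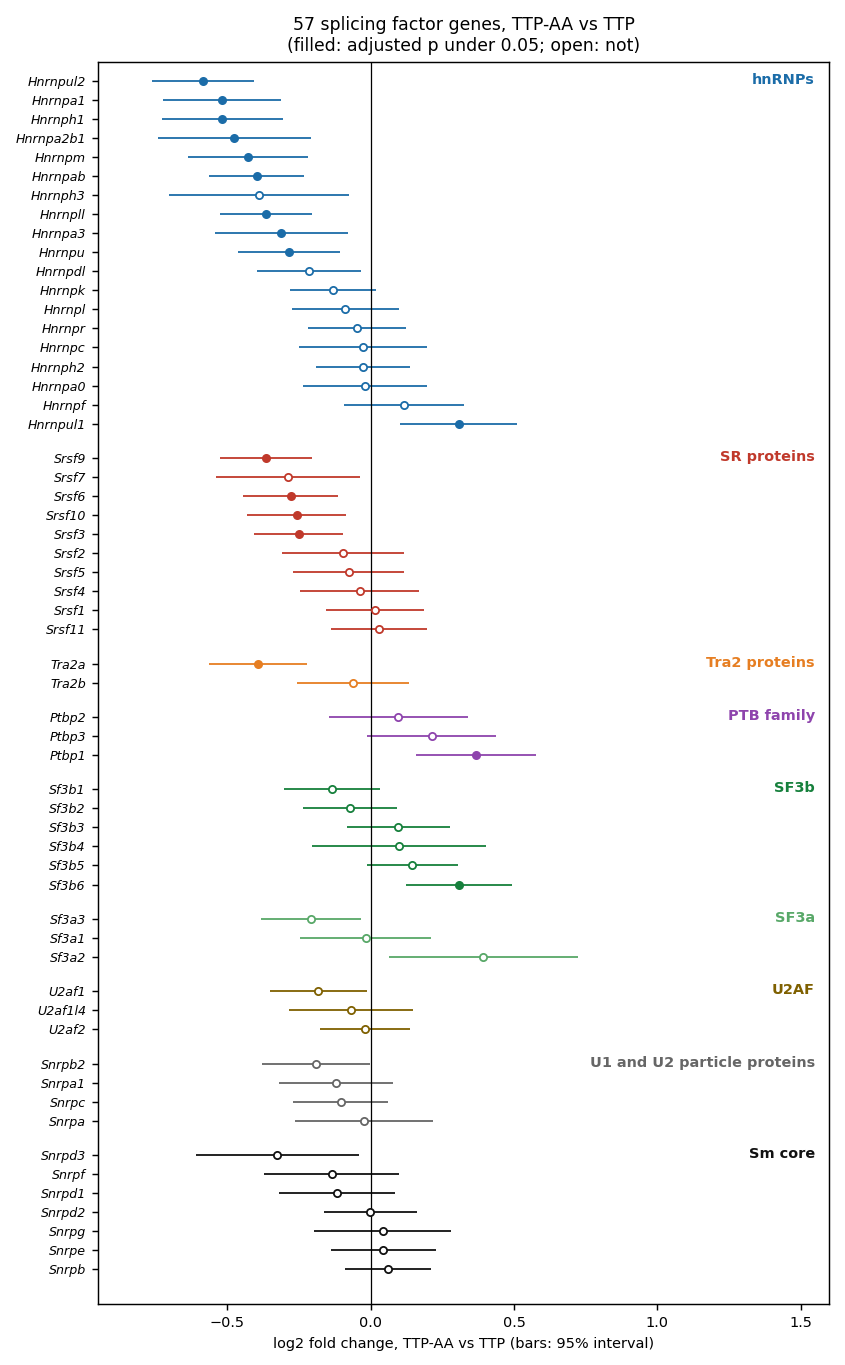
Log2 fold change of TTP-AA against TTP for the 57 members, grouped by family, with bars for the 95% interval; filled points have an adjusted p under 0.05. Of the filled points, 14 lie below 0, 9 of them hnRNPs, and 3 lie above 0.

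The hnRNPs held most of the lower members, with 9 of 19 lower (47.4%, against 14.6% of all genes) and 1 higher (5.26%, against 14%). Their median change was -0.29. Hnrnpul2, a relative of hnRNP U, showed the largest change at -0.58 ± 0.09 (log2, SE; DESeq2 adjusted p = 5.2e-09). Its fitted normalised counts were 4279, 3626 and 6325 in GFP, 5598, 4743 and 8274 in TTP and 3732, 3163 and 5516 in TTP-AA. By the fit TTP was highest within each replicate number, and the fitted value of TTP-AA replicate 3 lay within the TTP range. Hnrnpa1 changed by -0.52 ± 0.10 (adjusted p = 1.34e-05 in DESeq2), and its close relative Hnrnpa2b1, which also binds and sorts mRNAs in the cytoplasm, by -0.48 ± 0.14 (adjusted p = 0.00308). Hnrnph1, which binds G-rich sequences, had fitted counts of 10862, 9955 and 13931 in TTP and 7588, 6954 and 9732 in TTP-AA, a change of -0.52 ± 0.11 (adjusted p = 2.21e-05). All 3 fitted TTP-AA values of Hnrnph1 lay below all fitted TTP values, which is no measure of the spread of its replicates. The listed genes of chromosomes 19, 15 and 11, which hold Hnrnpul2, Hnrnpa1 and Hnrnph1, had median changes of -0.11, -0.10 and -0.14. Centred by chromosome, Hnrnpul2, Hnrnpa1 and Hnrnph1 came to -0.47, -0.42 and -0.38. Hnrnpa2b1, on chromosome 6 with a median of 0.04, came to -0.52, and all stayed called.

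Hnrnpm, which binds GU-rich intronic sequence, changed by -0.43 ± 0.11 and Hnrnpab by -0.40 ± 0.08 on the log2 scale. Centred by chromosome, Hnrnpm came to -0.40 and Hnrnpab to -0.26. Hnrnpll, best known for the alternative splicing of CD45 in lymphocytes, came to -0.37 ± 0.08 (DESeq2 adjusted p = 9.04e-05). Hnrnpa3 at -0.31 ± 0.12 and the scaffold-associated Hnrnpu at -0.29 ± 0.09 completed the lower members. Hnrnpul1 was the only hnRNP called higher, at 0.31 ± 0.10 (adjusted p = 0.015). Among those not called, Hnrnph3 (-0.39 ± 0.16, adjusted p = 0.0518) and Hnrnpdl (-0.22, adjusted p = 0.0626) lay next to the threshold, while Hnrnpk gave -0.13 ± 0.08 and Hnrnpl, the paralogue of Hnrnpll, -0.09 ± 0.10. In the Wald test Hnrnph3 was called lower when centred by chromosome (-0.54, adjusted p = 0.00537) and among genes with a mean of at least 50 (adjusted p = 0.0484). Hnrnpc stood at -0.03 ± 0.11 and Hnrnpa0 at -0.02 ± 0.11.

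Reads of several hnRNPs could be shared with copies or neighbours. Of the 50-base windows of the transcript, 91% of Hnrnpa3, 46.4% of Hnrnpa1 and 28.8% of Hnrnpm also occur in transcripts of other genes, for Hnrnpa1 of 18 annotated pseudogenes, and reads with up to 2 placements were kept. The exons of Hnrnpab overlap Phykpl on the other strand over 29.1% of their length and those of Hnrnpm overlap March2 on the same strand over 14.7%. Whether the counting used strand is not given in the sources used here, so these changes are uncertain as to gene. Over all members 18 had more than 25% of windows shared, up to 97.2% for U2af1l4, and 24 had exons overlapping another gene. A selection made after the values were seen held the 26 members with at most 25% shared windows and no overlap. In TTP-AA against TTP 7 of these were called lower (26.9%, against 14.6% of all genes) and 2 higher (7.69%, against 14%). Of the 7 hnRNPs in it 3 were lower (42.9%) and 1 higher (14.3%).

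Of the SR proteins 4 of 10 were called, all lower in TTP-AA (40%, against 14.6% of all genes called lower and 14% higher). The median of the 10 was -0.17. Srsf9, an SR protein that represses as well as activates exons, changed by -0.37 ± 0.08 (log2, SE; DESeq2 adjusted p = 9.46e-05). Its fitted normalised counts were 5018, 5722 and 6900 in TTP and 3896, 4443 and 5358 in TTP-AA. The fitted values of the 2 groups overlapped through TTP-AA replicate 3 and TTP replicate 1. Srsf6 came to -0.28 ± 0.08, Srsf10, a splicing repressor when dephosphorylated, to -0.26 ± 0.09, and Srsf3, the smallest SR protein and an adaptor for mRNA export, to -0.25 ± 0.08. Srsf7, its closest relative, gave -0.29 ± 0.13 and did not pass (adjusted p = 0.0754). Srsf1, the archetype of the family, was at 0.02 ± 0.09 with a 95% interval of -0.16 to 0.19, Srsf2 at -0.10 ± 0.11 and Srsf5 at -0.08 ± 0.10. Of the Tra2 proteins, which bind GAA-rich enhancers, Tra2a changed by -0.39 ± 0.09 (adjusted p = 9.43e-05 in DESeq2) and Tra2b was at -0.06 ± 0.10.

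Higher members were few. Ptbp1, the polypyrimidine tract-binding protein that represses neuronal exons, had fitted normalised counts of 8236, 6371 and 6699 in TTP and 10622, 8217 and 8640 in TTP-AA. It was higher in TTP-AA by 0.37 ± 0.11 (log2, SE; DESeq2 adjusted p = 0.0038), the fitted values overlapping through TTP-AA replicate 2 and TTP replicate 1. Its paralogues Ptbp3 (0.21 ± 0.11) and Ptbp2 (0.10 ± 0.12) did not pass. Sf3b6 was higher by 0.31 ± 0.09 (adjusted p = 0.00656), and it was the only SF3b subunit called, with Sf3b1, the large subunit that is recurrently mutated in myeloid neoplasms, at -0.14 ± 0.09. Both Ptbp1 and Sf3b6 lost the call when changes were centred on the median of their chromosome, as did Srsf6 and Hnrnpa3. The exons of Ptbp1 also overlap 3 genes on the other strand.

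The constitutive parts of the particles had few calls, but sets of 3 to 7 genes are too small to set apart from the background. Over all listed genes 9.16%, 17.9% and 28.6% were called in TTP against GFP, TTP-AA against GFP and TTP-AA against TTP. An unadjusted p under 0.05 in the same Wald test was held by 21.3%, 29.1% and 38% of them. Of the 7 Sm genes, whose products form the ring on the U1, U2, U4 and U5 snRNAs, 0 were called in any comparison by DESeq2, and 0, 0 and 1 had an unadjusted p under 0.05 in TTP against GFP, TTP-AA against GFP and TTP-AA against TTP. Their median in the last was -0.0014, and the 95% intervals lay between -0.61 and 0.28. Centring on the chromosome median called Snrpd3 lower (-0.47, adjusted p = 0.00683), from -0.33 ± 0.14. The U2AF genes, the SF3a genes and the U1 and U2 particle proteins had 0 calls in TTP-AA against TTP, with 1 of 3, 2 of 3 and 1 of 4 at an unadjusted p under 0.05. U2af1, which reads the AG of the 3′ splice site, was at -0.18 ± 0.09 (DESeq2 adjusted p = 0.102), and U2af2, which binds the polypyrimidine tract, at -0.02 ± 0.08. Sf3a2 had the highest change of the 57 members and a wide interval, 0.39 with 0.06 to 0.72 (adjusted p = 0.0637), and was called higher once the trend on GC content and length was removed (0.43, adjusted p = 0.0391).

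Close paralogues were set against each other in TTP-AA against TTP, in 7 pairs picked after the values were seen and so given as a description, with errors taken as independent. Relatives with like changes, such as Hnrnpa1 and Hnrnpa2b1 (-0.52 and -0.48) or Srsf3 and Srsf7 (-0.25 and -0.29), were not among the pairs. The pairs therefore do not show how often paralogues differed. Hnrnpul2 lay 0.89 below Hnrnpul1 (a difference of -0.89 in log2 change, 95% interval -1.16 to -0.62). Hnrnph1 lay below Hnrnph2 (-0.49, interval -0.76 to -0.22), Hnrnpa1 below Hnrnpa0 (-0.50, interval -0.80 to -0.20) and Srsf9 below Srsf1 (-0.38, interval -0.61 to -0.15). The intervals of Tra2a minus Tra2b (-0.33, from -0.59 to -0.07) and Hnrnpll minus Hnrnpl (-0.28, from -0.52 to -0.03) came nearer to 0, and that of Ptbp1 minus Ptbp3 (0.15, from -0.15 to 0.46) held it.

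Against GFP fewer members were called, as were fewer of all genes. The median absolute log2 change of the members was 0.110 in TTP against GFP, 0.129 in TTP-AA against GFP and 0.135 in TTP-AA against TTP. Over all genes it was 0.128, 0.156 and 0.191. The comparison of TTP with GFP sets the line with unmutated TTP against the line with GFP alone, again with construct and line not told apart. Here 1 of 57 members was called, 1.75% against 9.16% of all listed genes (4.08% higher and 5.08% lower). This was Hnrnpul2, higher in TTP by 0.39 ± 0.09 (DESeq2 adjusted p = 0.000675). It lies on chromosome 19, whose 427 listed genes had a median change of 0.20, and it was not called once changes were centred by chromosome. With Hnrnpul2, 9 members (15.8%) had an unadjusted p under 0.05, all higher in TTP, against 21.3% of all genes in either direction and 10.7% higher. Above 0 were 49 of the 57 members and 6262 of the 11977 listed genes, with medians of 0.10 and 0.01. Hnrnpm (0.30 ± 0.11, adjusted p = 0.0533) and Hnrnpa1 (0.28 ± 0.10, adjusted p = 0.0707) were the nearest to the threshold in DESeq2. All 10 SR proteins were above 0, between 0.04 and 0.22, with 0 called and 1 at an unadjusted p under 0.05.

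TTP-AA against GFP called 8 of 57 members (14.04%, against 17.9% of all genes). Of these 5 were lower, 8.77% of the members and 8.77% of all genes, and 3 were higher, 5.26% against 9.11%. The lower members were Tra2a (-0.31 ± 0.09, DESeq2 adjusted p = 0.00519), Hnrnpab (-0.30 ± 0.08, adjusted p = 0.00379), Hnrnph1 (-0.28 ± 0.11, adjusted p = 0.04996, just inside the threshold), Srsf9 (-0.27 ± 0.08, adjusted p = 0.0104) and Hnrnpll (-0.21 ± 0.08, adjusted p = 0.0486). The higher members were Ptbp1 at 0.30 ± 0.11, Sf3b6 at 0.30 ± 0.09 and Sf3b5, another small SF3b subunit, at 0.23 ± 0.08. Scaling the scores by their spread (1.77 here and 1.51 for TTP against GFP) left 0 members called in both comparisons with GFP, and centring by chromosome kept 2 of the 8, Tra2a and Srsf9. Hnrnph1 (adjusted p = 0.0652) and Hnrnpll (adjusted p = 0.0722) were also not called once the trend on GC content and length was removed.

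Side by side, 18 members were called in at least 1 comparison and 39 in none, and 7 were called in both comparisons of TTP-AA. These counts were not taken over all listed genes, so they have no background beside them and only describe the members. The 3 comparisons share libraries, so their values are not independent. Hnrnpul2 stood at 0.39, -0.20 and -0.58 in TTP against GFP, TTP-AA against GFP and TTP-AA against TTP, and Hnrnpa1 at 0.28, -0.24 and -0.52, with GFP between the other groups. Tra2a stood at 0.09, -0.31 and -0.39 and Sf3b6 at -0.01, 0.30 and 0.31, with TTP close to GFP.

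**Figure D4:**
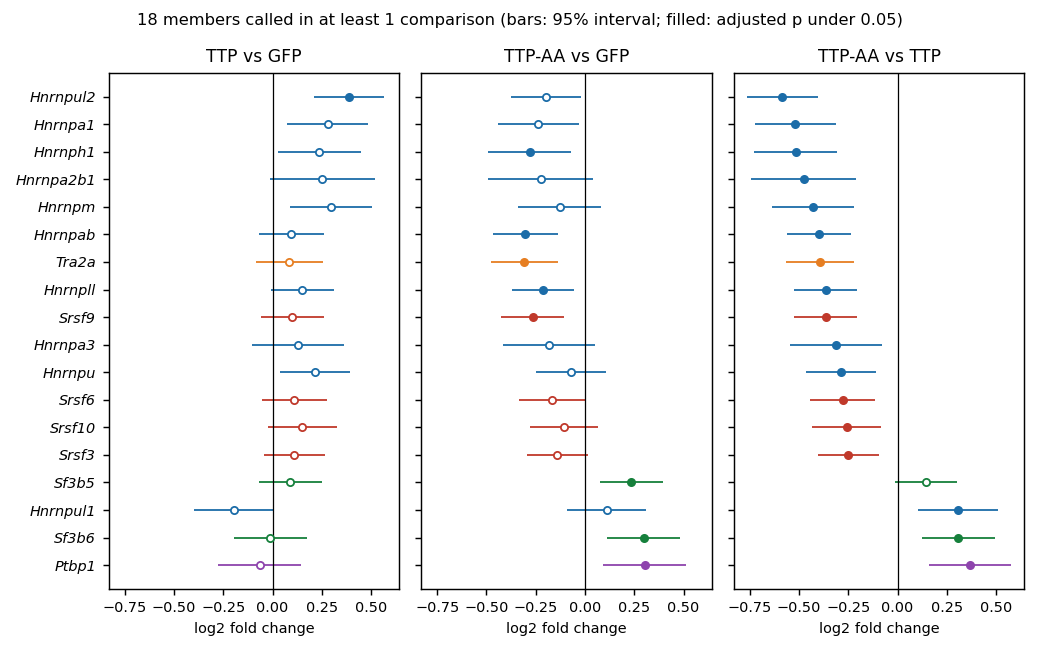
Log2 fold changes with 95% intervals for the 18 members called in at least 1 comparison, in TTP vs GFP, TTP-AA vs GFP and TTP-AA vs TTP; filled points have an adjusted p under 0.05. The panels hold 1, 8 and 17 filled points, and the comparisons share libraries.

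Members with the heptamer were called in 5 of 12 cases in TTP-AA against TTP, 4 lower (33.3%) and 1 higher (8.33%), with a median of -0.22. Those without it were called in 12 of 45 cases, 10 lower (22.2%) and 2 higher (4.44%), with a median of -0.07. Over all coding genes 973 of 3134 with the heptamer and 2571 of 8488 without it were called, with medians of -0.05 and -0.01. With it 18.7% of the 3134 were lower and 12.4% higher, and without it 14.8% of the 8488 were lower and 15.5% higher. The 6 windows printed above thus belong to 4 genes that were lower and 1, Ptbp1, that was higher in TTP-AA. Hnrnpr, with 3 matches in a 3′UTR of 19419 bases, was at -0.05 ± 0.09, and Hnrnpul2 and Hnrnph1 had none in the 3′UTR read.

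In the annotation, 31 of the 57 members (54.39%) have a transcript marked for nonsense-mediated decay, against 29.53% of the listed coding genes. A transcript with a retained intron is annotated for 45 members (78.95%) against 59.68%. The gene counts here do not separate these forms, so a lower count can be less of any of them. The members also have more annotated transcripts, a median of 7 against 5. The part of this in both shares was not tested.

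The other splicing genes, a list of 86 that were all found, gave 25 calls in TTP-AA against TTP, 29.1% of the list beside 28.6% of all genes. Of these 24 were lower (27.9%, against 14.6% of all genes) and 1 higher (1.16%, against 14%), and the median was -0.13. The proteins of the U1 particle, the tri-snRNP and the catalytic step had 11 of 29 lower and 0 higher. Prpf8, the scaffold of the catalytic core, changed by -0.58 (DESeq2 adjusted p = 9.1e-09), with the SR-related Pnn at -0.54 and Prpf6, which bridges the tri-snRNP, at -0.49, and the kinase gene Dyrk1a was higher at 0.41. In TTP against GFP 10 were called higher (11.6%, against 4.08% of all genes), led by the ubiquitin ligase gene Prpf19 (0.52), the tri-snRNP gene Sart1 (0.44) and Pnn (0.43), and 1 lower (1.16%, against 5.08%), Snrnp27 (-0.30). In TTP-AA against GFP 8 were called, 9.3% of the list beside 17.9% of all genes. Of these 4 were higher, among them the splicing regulator Rbfox2 (0.36), Dyrk1a (0.36) and Prpf19 (0.28). The 4 lower genes included the splicing regulator Mbnl1 (-0.53), Snrnp27 (-0.47) and Lsm8 of the U6 ring (-0.45). Prpf19 and Sart1 lie on chromosome 19, whose listed genes had a median change of 0.20 in TTP against GFP and 0.10 in TTP-AA against GFP. Prpf8 lies on chromosome 11, whose listed genes had a median change of -0.14 in TTP-AA against TTP. The values given for the other splicing genes are not centred by chromosome.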

How the data were processed

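RNA-seq of 9 libraries (3 groups of 3) was analysed from the processed tables. According to the study's methods and the submitters' processing notes, 50-base single-end reads were trimmed with Trim Galore, aligned to GRCm38 with TopHat2 (2.0.12 in the notes) keeping up to 2 placements, counted with HTSeq on Ensembl genes, and fitted by the authors with DESeq2 1.6.3 with library date and condition as terms. The deposited library table is signal: fitted values per gene and library, without scatter (0 zeros among 25494 genes, and 4 nonzero singular values, against 8 for unconstrained libraries). The deposited comparison tables hold mean normalised signal, log2 fold changes with their SE, Wald scores, and raw and adjusted p-values. These columns are the authors' own comparisons. They were used as the test, since no other error can be had from the fitted library values. Whether the fold changes were shrunk is not given in the sources used here.

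Here, members were matched by symbol, 95% intervals were taken from the SE and the normal distribution, library factors were set from the fitted values, and levels per kb used the GENCODE M21 transcript with the longest coding sequence. A gene was called at an adjusted p under 0.05 over all listed genes. Genes named were a fixed list, then up to 12 called members in each direction with a mean of at least 50, and up to 3 of the other splicing genes. The members and lists were chosen with earlier results of these data known. The median SE over all genes was 0.12, 0.125 and 0.126 in TTP vs GFP, TTP-AA vs GFP and TTP-AA vs TTP. Over the members it was 0.0963, 0.0962 and 0.0963. The recomputation of adjusted p-values was tested on simulated data. For each comparison 7 alternatives were run (Python 3.11.15, numpy 2.4.6, pandas 2.3.3, scipy 1.17.1). No columns of other samples were present.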

Additional observations from a re-analysis of the deposited data

How the results depend on the processing

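Dividing the Wald scores by their central spread left 0 members called in TTP vs GFP, 0 in TTP-AA vs GFP and 0 in TTP-AA vs TTP, from 1, 8 and 17, while 247, 197 and 266 of all genes stayed called; the scores of all genes were wider than a standard normal, and the cause was not tested. Removing the trend on GC content and length gave 3 calls in TTP vs GFP (Hnrnpm and Hnrnpr added). In TTP-AA vs GFP, centring by chromosome gave 4 calls, 2 of them shared and Srsf1 (higher) and Hnrnpul2 (lower) added, a threshold of 0.01 gave 2, and removing the GC and length trend gave 6, without Hnrnph1 and Hnrnpll. In TTP vs GFP chromosome centring called Srsf11 in place of Hnrnpul2. The counts of TTP-AA vs TTP ran from 14 to 18 under the other 6 alternatives, and 11 of its 17 calls were lost only with the divided scores. None of these alternatives reversed a called change. The deposited fit already has library date as a term, and its fitted values hold a term shared by same-numbered libraries. No paired analysis was possible because, beyond that fit, only fitted values without a residual are at hand. For the same reason leaving out replicates, a fit without the date term and other pseudocounts were not run, and whether 1 library decides a call was not tested. The depth of a library cannot be checked beyond the sums of its fitted values.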
